A study of Rattus norvegicus with 36 samples.

Results

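Interneurons are a small minority of striatal neurons, and 4 genes commonly used as their markers were followed here through the nucleus accumbens of rats conditioned with cocaine. The genes were chosen by Ensembl ID, 4 of the 31546 IDs in each count table: Sst (ENSRNOG00000001837), Npy (ENSRNOG00000046449), Nos1 (ENSRNOG00000001130) and Pvalb (ENSRNOG00000006471). The deposited tables hold IDs without gene names, so these 4 names rest on the list that selected the rows. The rats were Sprague-Dawley animals aged 8 weeks, with 3 rats in each of 3 groups. Vulnerable and Non Vulnerable rats both received cocaine at 20 mg/kg, with 4 injections per the treatment label, in a conditioned place preference test, which pairs a drug with a compartment and then records where the animal spends its time. All of these rats also received saline in the opposite compartment, with the sessions of a day 6 h apart. Saline rats received 4 injections of physiological serum per their treatment label, under the same alternation of compartments and without cocaine. The series description separates rats that expressed the preference from rats that did not, but no sample label says that Vulnerable means having expressed it. The tissue label names the nucleus accumbens, whereas the extraction text also mentions the caudate putamen, and no source used here states the share of dorsal striatum in a sample.

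Sst, Npy and Nos1 are known to be made together in one class of GABAergic striatal interneuron, the low-threshold spiking cells. Sst encodes somatostatin and Npy encodes neuropeptide Y, a pair of peptides released beside GABA, and Nos1 encodes the neuronal enzyme that makes nitric oxide, a diffusible messenger that raises cyclic GMP in neighbouring cells. Pvalb encodes parvalbumin, a calcium-binding protein of the fast-spiking interneurons, which inhibit the projection neurons at the cell body. In bulk tissue, fewer cells of a type and less RNA per cell cannot be told apart.

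Polyadenylated RNA was sequenced in 4 technical replicate libraries per rat, and the 4 were summed. Total counts per rat lay between 41213813 and 64081679. Levels are given as CPM, counts divided by a library size that the TMM method makes comparable between rats, and since transcripts differ in length they are compared between rats and never between genes. On the first principal component of all tested genes, which held 40.2% of the variance, scores were 21.7 to 34.2 in Vulnerable, -58.5 to -7.51 in Non Vulnerable and 7.3 to 10 in Saline rats. Non Vulnerable rat 3 was the farthest from 0.

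The start regions of Sst and Nos1 shared a sequence feature that had no part in their selection, and it is shown because it is the one motif match that members had in common. In the RefSeq windows of rat assembly GRCr8, which run from 250 bases before to 50 bases after an annotated start, both held one copy of the palindromic cyclic AMP response element (CRE) TGACGTCA. This is the site bound by CREB, a transcription factor that cyclic AMP and calcium signals activate. The capitals mark the element in the 30 bases around it, each read 5′ to 3′ on the strand of the gene.
Sst, chr11:90461537-90461566, plus strand: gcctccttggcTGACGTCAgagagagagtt
Nos1, chr12:44371828-44371857, minus strand: tgacgccaagtTGACGTCAaagacagaggc

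In Sst the element lay at bases 3 to 10 from the annotated start, counted from 1, and in Nos1 it lay 9 to 2 bases before the annotated start. Where transcription starts in these samples was not tested, so the element need not lie inside the Sst RNA. The Nos1 window sits inside the annotated span of the gene (44276011 to 44456371 on chromosome 12), so it belongs to a start downstream of the outermost one. The Pvalb window (111666240 to 111666539 on chromosome 7, minus strand) likewise lies inside its gene (111653820 to 111668469). The windows of Npy (on chromosome 4) and Pvalb held no copy, which for Pvalb describes that internal start only. Over all 33469 windows of that length, 1.83% held the element on either strand, counting it once since it reads the same on both. The AP-1 motif TGANTCA, searched on both strands, was found once among the 4 windows, as TGAGTCA in Nos1 at bases -196 to -190, and in 7.33% of all windows. TATAAA was found on either strand in none of the 4 windows and in 14.2% of all windows. These matches describe letters in a window and say nothing about binding.

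Sst was measured at similar levels in all 3 groups. It had 59, 76.6 and 71.4 CPM in Vulnerable rats 1 to 3, 71, 61 and 75.2 CPM in Non Vulnerable rats, and 48.7, 74.1 and 74.6 CPM in Saline rats. The groups overlapped in every pairing, and the widest gap lay inside the Saline group, where rat 1 was the lowest of the 9. Means were 69 ± 9.05 CPM in Vulnerable, 69 ± 7.3 CPM in Non Vulnerable and 65.8 ± 14.8 CPM in Saline rats (SD, n = 3 each). For Vulnerable against Non Vulnerable rats edgeR estimated a log2 fold change of 0 with an SE of 0.17, which did not pass the test (edgeR adjusted p = 0.998). Its 95% interval was 0.765-fold to 1.31-fold. Against Saline the log2 fold change was 0.07 in Vulnerable rats (edgeR adjusted p = 0.963) and 0.07 in Non Vulnerable rats (edgeR adjusted p = 0.812), each with an interval of 0.803-fold to 1.37-fold. With 3 rats a group, a change of somatostatin mRNA inside these bounds remains possible.

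Nos1 also overlapped between all groups. Its levels were 159, 202 and 196 CPM in Vulnerable rats 1 to 3, 163, 217 and 222 CPM in Non Vulnerable rats, and 160, 176 and 214 CPM in Saline rats. The lowest rats of the 3 groups were within 4 CPM of each other, and the highest stood at 202, 222 and 214 CPM. The closeness of the lowest rats, rat 1 of each group, depended on the TMM scaling. Per library total, their libraries gave 170 to 175 CPM (Vulnerable), 144 to 148 CPM (Non Vulnerable) and 157 to 166 CPM (Saline). Means were 186 ± 22.9 CPM in Vulnerable, 201 ± 32.8 CPM in Non Vulnerable and 183 ± 27.5 CPM in Saline rats (SD, n = 3 each). For Vulnerable against Non Vulnerable rats the log2 fold change was -0.11 with an SE of 0.156 (edgeR adjusted p = 0.601) and an interval of 0.725-fold to 1.18-fold. It was 0.02 for Vulnerable against Saline (edgeR adjusted p = 0.988, interval 0.794-fold to 1.29-fold) and 0.13 for Non Vulnerable against Saline rats (edgeR adjusted p = 0.596, interval 0.859-fold to 1.4-fold).

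Pvalb varied most between rats of the 3 tested members. Vulnerable rats 1 to 3 had 4.75, 6.52 and 4.85 CPM, Non Vulnerable rats had 9.18, 7.38 and 22.6 CPM, and Saline rats had 6.09, 2.64 and 10.8 CPM. All 3 Vulnerable rats lay below all 3 Non Vulnerable rats, and 46.7% of all tested genes had no overlap between these groups, in either direction. The Saline rats spanned from below every Vulnerable rat to above 2 of the 3 Non Vulnerable rats. The means were 5.38 ± 0.995 CPM in Vulnerable, 13.1 ± 8.33 CPM in Non Vulnerable and 6.51 ± 4.09 CPM in Saline rats (SD, n = 3 each). Non Vulnerable rat 3 stood at 22.6 CPM, against at most 10.8 CPM in any other rat.

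**Figure D1:**
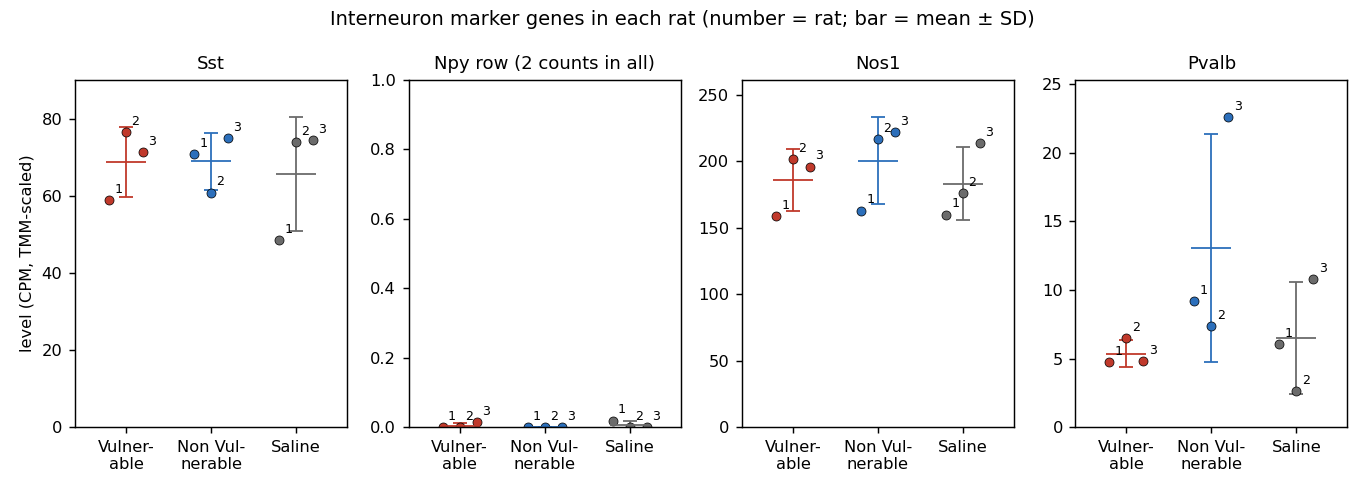
Level of each member (CPM scaled by TMM, vertical axes from 0) in the 3 rats of each group; points are rats with their number, and bars give the mean ± SD. Sst and Nos1 overlap between all groups, the row named Npy sits at or next to 0 in every rat, and Non Vulnerable rat 3 is the highest point for Pvalb at 22.6 CPM.

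Vulnerable rats had a lower Pvalb mean than Non Vulnerable rats, with a log2 fold change of -1.28 (SE 0.53), but the difference did not pass the test over all genes (edgeR unadjusted p = 0.0393, adjusted p = 0.0932). Its 95% interval ran from 0.179-fold to 0.947-fold. DESeq2 called the same difference, at a log2 fold change of -1.25 and an adjusted p of 0.0409, and limma voom did not (log2 -1.08, adjusted p = 0.131). The size turned on 1 animal: without Non Vulnerable rat 3 the log2 fold change was -0.62 (edgeR adjusted p = 0.367), whereas without any other rat it lay between -1.57 and -1.14. That animal is also the one farthest out on the first principal component, with which Pvalb had r = -0.652 over the 9 rats. Non Vulnerable rat 2, next farthest at -46.9, had the lowest Pvalb level of its group, at 7.38 CPM. The part of this component in the Pvalb values was not tested. Non Vulnerable against Saline rats gave 1.00 on the log2 scale (SE 0.527, edgeR adjusted p = 0.221, interval 0.875-fold to 4.58-fold), which became 0.35 when Non Vulnerable rat 3 was left out, 0.63 when Saline rat 2 was and 1.55 when Saline rat 3 was. Vulnerable against Saline rats gave -0.28 (SE 0.528, edgeR adjusted p = 0.953, interval 0.36-fold to 1.89-fold), which was -0.65 without Saline rat 2 and turned to 0.32 without Saline rat 3.

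**Figure D2:**
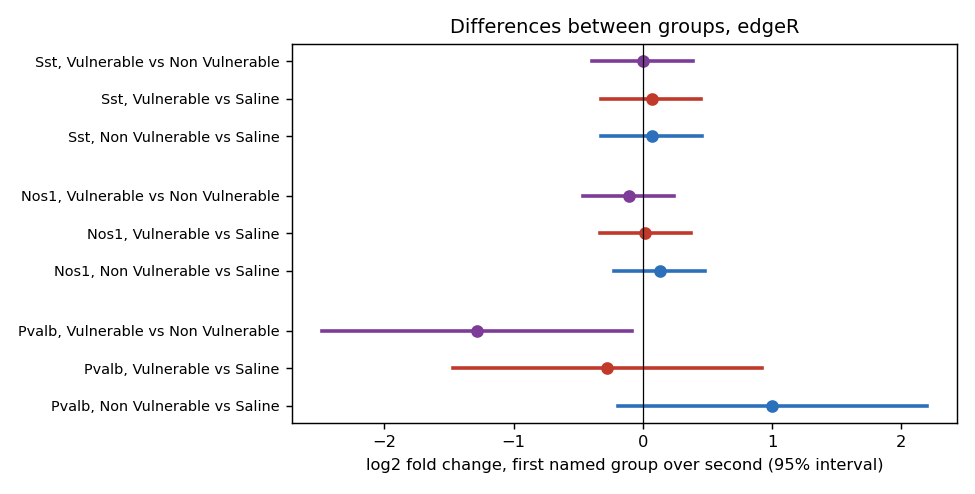
Log2 fold change (points) with its 95% interval (lines) from edgeR for Sst, Nos1 and Pvalb in the 3 comparisons, the first named group over the second. Intervals of Sst and Nos1 stay within -0.46 and 0.48, and those of Pvalb are far wider, from -2.48 to 2.20.

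**Figure D3:**
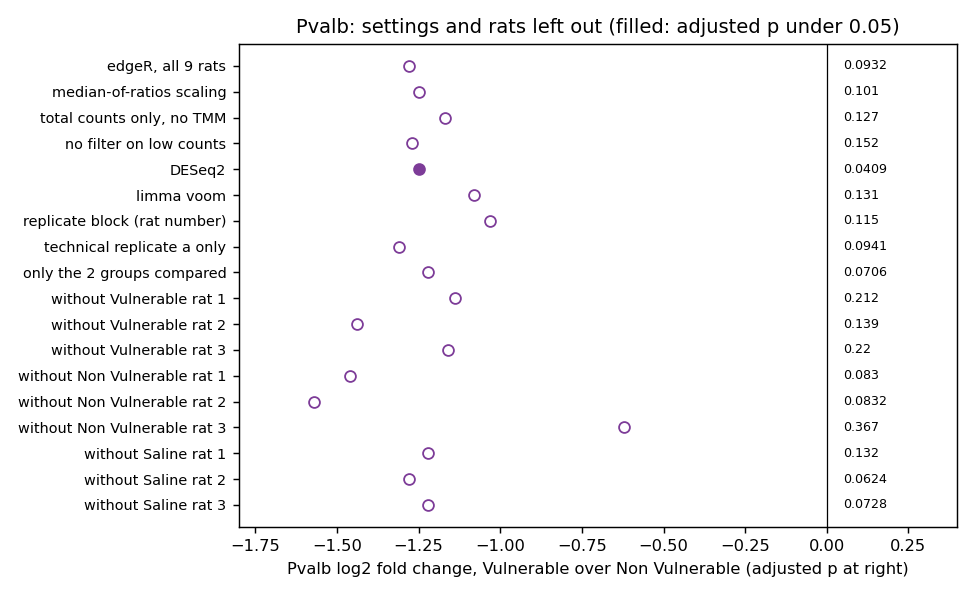
Pvalb log2 fold change of Vulnerable over Non Vulnerable rats (horizontal axis) with all 9 rats, under each alternative setting and with each rat left out, with the adjusted p at the right; filled points have an adjusted p under 0.05. DESeq2 alone falls under that threshold, and leaving out Non Vulnerable rat 3 brings the value nearest to 0, at -0.62.

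The row named Npy was next to empty. It held 1 count in Vulnerable rat 3, 1 count in Saline rat 1 and 0 counts in all other rats, 2 counts over the whole series. A count of 0 allows up to 3 counts, or 0.0582 to 0.0742 CPM in the rats concerned. The row did not pass the filter on low counts, so 3 of the 4 members were tested. Without the filter it gave edgeR adjusted p of 0.527 to 1 in the 3 comparisons. Neuropeptide Y mRNA is known to be readily detected in striatum, so the row goes against its name and does not serve as a marker in these tables. Whether the annotation used for counting placed neuropeptide Y reads in this row was not tested, and nothing about Npy mRNA is drawn from it.

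No tested marker was called by edgeR in any comparison, and DESeq2 called 1, Pvalb in Vulnerable against Non Vulnerable rats. Vulnerable and Non Vulnerable rats differed for 31.5% of all genes (edgeR, adjusted p under 0.05), and 0 of the 3 tested members were called. An unadjusted edgeR p under 0.05 was found for 1 member, and for 7255 of the 16029 tested genes. DESeq2 called 37.8% of all genes and 1 of the 3 members. Pvalb was the 1 member whose rats did not overlap between these groups, as was true of 46.7% of all genes. Non Vulnerable and Saline rats differed for 14.7% of all genes, with 0 members called by edgeR, limma voom or DESeq2. By these tools 0 members had an unadjusted p under 0.05, against 5244 of the 16029 tested genes by edgeR. No member had non-overlapping groups, where 35% of all genes had them. Vulnerable and Saline rats differed for 0% of all genes by edgeR (lowest edgeR adjusted p 0.309). Here 807 of 16029 genes had an unadjusted p under 0.05, about the share which that threshold lets through where no gene differs. Such a share does not show that no gene differs. DESeq2 called 30 of 14465 genes. Among members 0 were called and 0 had an unadjusted p under 0.05 by any of the 3 tools, and all overlapped, against 11.9% of all genes that did not. A test for any difference among the 3 groups called 21.3% of all genes and 0 members, with edgeR adjusted p of 0.934 for Sst, 0.773 for Nos1 and 0.176 for Pvalb. In size, the Pvalb difference of Vulnerable from Non Vulnerable rats exceeded that of 95.8% of all genes, while those of Sst and Nos1 exceeded 0.2% and 19.2%. For Pvalb this share was 96.2% in Non Vulnerable against Saline rats and 79.8% in Vulnerable against Saline rats. These ranks take no account of precision. In Vulnerable against Non Vulnerable rats the SE was 0.53 for Pvalb, against a median of 0.144 over all tested genes. Without Non Vulnerable rat 3, Pvalb was at log2 -0.62 in Vulnerable against Non Vulnerable and 0.35 in Non Vulnerable against Saline rats. The 3 comparisons share rats in pairs and are not independent of each other.

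The spread between rats of a group was wider for Pvalb than for Sst and Nos1. From the lowest to the highest of the 9 rats, Pvalb ranged 8.58-fold, Sst 1.57-fold and Nos1 1.39-fold. The pooled SD of log2 CPM inside groups was 0.779 for Pvalb, 0.249 for Sst and 0.217 for Nos1, with a median of 0.18 over all tested genes. A larger SD than that of Pvalb was found for 3.72% of genes, against 35.6% for Sst and 41.4% for Nos1. The biological coefficient of variation, the edgeR estimate of variation between animals beyond counting error, was 44.4% for Pvalb where the trend over genes of that level gave 20.6%. It was 15.2% for Sst (trend 11.5%) and 14.1% for Nos1 (trend 12.7%).

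Counting error and the spread between technical replicates were smaller than the spread of Pvalb between rats. Non Vulnerable rat 3 had 914 counts of Pvalb, an exact 95% counting interval of 21.2 to 24.1 CPM, and Saline rat 2 had 110 counts, an interval with an upper bound of 3.18 CPM. The 4 technical libraries of Non Vulnerable rat 3 gave 20.3 to 23.6 CPM of library total, and those of Saline rat 2 gave 2.36 to 3.05. Chi-square tests of the 4 libraries of a rat found a p of at least 0.304 for Pvalb in all 9 rats, 0.187 for Nos1 and 0.05 for Sst. Counting intervals cover counting error only, since reads without molecular identifiers are not independent molecules.

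**Figure D4:**
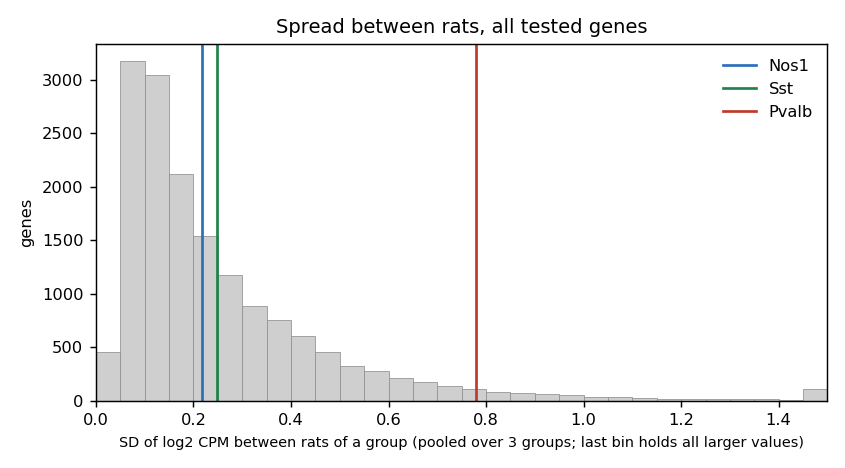
Number of tested genes (vertical axis) by the SD of log2 CPM between rats of a group, pooled over the 3 groups (horizontal axis, the last bin holding all larger values); lines mark the members. Nos1 and Sst lie near the body of the distribution at 0.217 and 0.249, and Pvalb lies in its tail at 0.779.

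Ratios between members inside a rat, in which the scaling between libraries cancels, were compared next. Nos1 counts over Sst counts were 2.7, 2.64 and 2.74 in Vulnerable rats, 2.3, 3.56 and 2.95 in Non Vulnerable rats and 3.29, 2.37 and 2.86 in Saline rats. The Vulnerable rats lay close together and inside the range of each other group. The SD of the log2 ratio was 0.03 in Vulnerable, 0.32 in Non Vulnerable and 0.24 in Saline rats, a difference in spread that was not tested. An exact permutation test of the between-group F over all divisions of the 9 rats, which has no direction, gave p = 0.854 for this ratio.

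Pvalb counts over Sst counts were 0.0806, 0.0852 and 0.0679 in Vulnerable rats, 0.129, 0.121 and 0.301 in Non Vulnerable rats and 0.125, 0.0356 and 0.145 in Saline rats. As with the Pvalb level, every Vulnerable rat was below every Non Vulnerable rat and the Saline rats spread across both. Sst had a log2 fold change of 0 between Vulnerable and Non Vulnerable rats, so this order largely repeats that of the Pvalb level. Levels of 46.7% of all tested genes also had no overlap between these 2 groups. The exact permutation test over the 3 groups gave p = 0.257 for Pvalb over Sst and p = 0.254 for Pvalb over Nos1, and 0.386 for each after Benjamini-Hochberg adjustment over the 3 ratios. The smallest p this test can give is 0.00357. Without Saline rat 2, whose ratio was the lowest, the p for Pvalb over Sst was 0.0393 in the exact permutation test, not adjusted over the 3 ratios. That p is for any difference among the 3 groups. It does not test the log2 difference of -1.11 between Vulnerable and Non Vulnerable rats, in which Saline rats have no part. Without any other rat the exact permutation p lay between 0.189 and 0.629.

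Across the 9 rats none of the 3 pairs of members had a correlation that passed its test. Pearson's r of log2 CPM was 0.53 for Nos1 and Sst (exact permutation p = 0.136), with a Spearman rho of 0.65 (exact permutation p = 0.0666). Leaving out Saline rat 1 and Vulnerable rat 1, the 2 rats farthest from the median of Nos1, gave r = -0.134. Taking out the extremes of a gene narrows its range, which by itself can lower r. Without Saline rat 1 alone r was 0.324, and without Vulnerable rat 1 alone it was 0.454. The highest r with 1 rat left out was 0.7, without Non Vulnerable rat 2 (exact permutation p = 0.0257, against 0.0807 to 0.431 without any other rat). Pvalb and Nos1 had r = 0.535 (exact permutation p = 0.138) and rho = 0.667 (exact permutation p = 0.0589), with r = 0.343 without Non Vulnerable rat 3 and Saline rat 2. Pvalb and Sst had r = 0.212 (exact permutation p = 0.553) and rho = 0.383 (exact permutation p = 0.312), with r = 0.377 without the same 2 rats. After adjustment over the 3 pairs the exact permutation p of the Pearson correlations was 0.208, 0.208 and 0.553, and that of the rank correlations was 0.0998, 0.0998 and 0.312. Deviations from group means gave r = 0.524 for Nos1 and Sst, 0.47 for Pvalb and Nos1 and 0.197 for Pvalb and Sst, so the values inside groups were near the pooled ones.

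**Figure D5:**
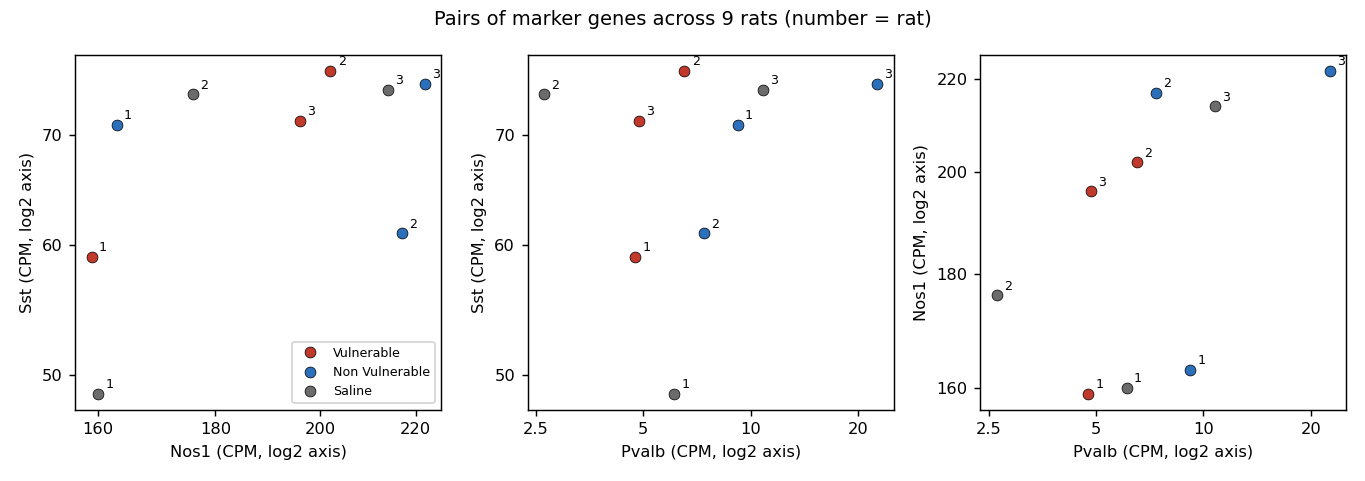
Levels of 2 members plotted against each other in the 9 rats (CPM on log2 axes, colour for group, number for rat), for Nos1 and Sst, Pvalb and Sst, and Pvalb and Nos1. Saline rat 1 and Vulnerable rat 1 are low in both Nos1 and Sst, and no group forms a cluster of its own in any panel.

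Genes with the most similar pattern over the 9 rats were sought among 13724 genes with a mean of at least 1 CPM, as a description of likeness picked from that many candidates. For Sst it was ENSRNOG00000046607 (r = 0.985, 0.93 to 1.36 CPM), and 48 genes, or 0.35% of those searched, had r above 0.8. For Nos1 it was ENSRNOG00000031760 (r = 0.985, 2.46 to 4.87 CPM), with 435 genes or 3.17% above 0.8. For Pvalb it was ENSRNOG00000058053 (r = 0.945, 17.9 to 26.4 CPM), with 422 genes or 3.07% above 0.8. This ID was highest in Non Vulnerable rat 3 and lowest in Saline rat 2, as Pvalb was, and the ID most like Nos1 was highest in Non Vulnerable rat 3 and lowest in Vulnerable rat 1, as Nos1 was. None of these 3 IDs could be given a gene name here.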

How the data were processed

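Each of the 36 libraries has a deposited table of raw counts, 1 whole number for every Ensembl gene ID. Per the labels' protocols, libraries were strand-specific and made from polyA-selected RNA. Tools named in the submitters' processing notes are HTSeq 0.5.3, STAR and bcl2fastq 2.17.1.14. Genome build, annotation and strand setting: not given in the sources used here. Counts of genes that overlap another gene are therefore uncertain. The 4 technical replicates of a rat agreed within sampling noise (chi-square per degree of freedom 1.004 to 1.02) and were summed, giving n = 3 per group; rats are taken as separate animals from their labels.

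Counts were filtered with filterByExpr, scaled by TMM and fitted in edgeR 4.0.16 (R 4.3.3) with the robust quasi-likelihood test over all 9 rats, 1 coefficient per group. Benjamini-Hochberg adjustment ran over all 16029 tested genes, with calls at an adjusted p under 0.05. A prior count of 2 entered log2 CPM. The procedure was tested on simulated data in which few genes were changed, so that test does not give its error rate in these data. Ratios and correlations between members had exact permutation tests, for the 3 pairs left once the near-empty Npy row was set aside. DESeq2 1.42.0 and limma 3.58.1 were alternatives. Every member has its values given, whether called or not; the gene named as most like a member is the one of highest Pearson r.

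Members and lists were chosen with earlier results of these data known. The RefSeq table (GRCr8) paired 0 of the IDs with a symbol, so 13 lists of 110 symbols (other interneuron classes, GABA synthesis, peptide receptors and processing, nitric oxide signalling, projection neurons, neighbouring regions, glia, choroid plexus and vessels) could not be matched, and no such list or cell type marker check is reported. Start regions of the 4 members were taken from RefSeq by symbol, and all 4 matched.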

Additional observations from a re-analysis of the deposited data

How the results depend on the processing

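Sst in Vulnerable against Non Vulnerable rats, at log2 0, had no direction to keep: of 17 alternatives 11 lay above 0 and 4 below, from -0.08 to 0.15, none called. Of 136 values in the other 8 member comparisons, 124 did not change sign or call (3 of them at 0), 1 passed the threshold and 11 changed sign. The one that passed was Pvalb in Vulnerable against Non Vulnerable rats with DESeq2 (log2 -1.25). All that changed sign were uncalled: Sst in Non Vulnerable against Saline rats with total counts and no TMM (log2 -0.04), and the others with 1 rat left out. With a rat left out, log2 fold changes were -0.22 to 0.04 for Nos1 and -1.57 to -0.62 for Pvalb in Vulnerable against Non Vulnerable rats. In Vulnerable against Saline rats they were -0.07 to 0.17 for Nos1, -0.11 to 0.2 for Sst and -0.65 to 0.32 for Pvalb. In Non Vulnerable against Saline rats they were -0.01 to 0.24 for Nos1 and -0.16 to 0.16 for Sst. The log2 difference between Vulnerable and Non Vulnerable rats ran from -0.27 to 0.05 for Nos1 over Sst and from -1.35 to -0.69 for Pvalb over Sst, and r of Nos1 and Sst from 0.324 to 0.7.

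Counts of called genes also moved. For Vulnerable against Non Vulnerable they were 2798 to 5841 with a rat left out, against 5050 with all, and moved by over 1.5 times to 2820 and 3050 with Vulnerable rats 2 and 3 left out in turn, and to 2798 and 3035 with Non Vulnerable rats 2 and 3. For Non Vulnerable against Saline they were 251 to 3615, against 2351 with all, lowest without Saline rat 2 and highest without Non Vulnerable rat 1, with 1334 without Vulnerable rat 3, 490 and 905 without Non Vulnerable rats 2 and 3, and 952 without Saline rat 1. For any difference among the groups they were 1070 to 4228, against 3416 with all, with 1969 and 1818 without Vulnerable rats 2 and 3, 1070 and 1438 without Non Vulnerable rats 2 and 3, and 2150 without Saline rat 2. For Non Vulnerable against Saline they were 3747 with DESeq2 and 1164 with only the 2 groups compared, and for Vulnerable against Saline 30 with DESeq2 and 1 with total counts only. The cause was not tested. Deviations correlated at -0.137 to 0.19 for same-numbered rats and -0.239 to 0.191 for others. Pairing in single genes was not tested. With the rat number as a block (replicate block), Pvalb in Vulnerable against Non Vulnerable rats was at log2 -1.03 (edgeR adjusted p = 0.115), 5160 genes were called there, and no member changed its call.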

Other observations

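In each group rat 1 had the lowest Nos1 level, at 159 CPM in Vulnerable, 163 CPM in Non Vulnerable and 160 CPM in Saline rats, where the other rats lay between 176 and 222 CPM. Sst followed this in Vulnerable and Saline rats, where rat 1 was lowest at 59 and 48.7 CPM, and not in Non Vulnerable rats, where rat 2 was lowest at 61 CPM. The pattern was noticed after the values were seen and was not tested.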
